A study of Homo sapiens with 6 samples.

Results

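The annexins are proteins that bind acidic phospholipids of membranes when calcium rises. Each pairs a conserved repeated core, which carries the calcium and lipid sites, with an N-terminal tail that is particular to the member and binds partners such as S100 proteins. In epithelial cells they are known for organizing the cell cortex, for vesicle traffic and for sealing torn plasma membrane, and some members also act outside the cell. The family was followed here through 10 genes, ANXA1, ANXA2, ANXA3, ANXA4, ANXA5, ANXA6, ANXA7, ANXA9, ANXA11 and ANXA13, which are 10 of the 60664 genes in the table. The members were chosen by family name with their counts and fold changes in these same 6 libraries in view, so every difference between the groups given for them below is a description and not a test. All 10 were among the 16102 genes that passed the filter on low counts.

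The libraries hold total RNA of HCT-8, a human colorectal cancer line grown in DMEM with fetal bovine serum, after transfection with a control plasmid (shNC, 3 libraries) or a plasmid against PNISR (shPNISR, 3 libraries). PNISR is a serine- and arginine-rich nuclear protein, and the series asks about its part in splicing. Only gene-level read counts were used, so which annexin transcript was made was not analysed here. The labels do not say whether the 3 libraries of a group are separate cultures, so every p-value reflects how far these 6 libraries scatter, possibly for technical reasons alone, and 1 cell line was used.

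The sequences before the start sites of 4 annexins are shown here because their levels set the contrast in the results: ANXA1, ANXA2 and ANXA6 had higher means in shPNISR, while ANXA5, close to ANXA6 in shNC, lay level. Each is the 250 bases upstream of a RefSeq start site on GRCh38.p14, written 5′ to 3′ on the strand of the gene. Capitals mark matches on either strand to the motifs searched: TGANTCA (bound by AP-1), CACGTG (an E-box), TATAAA (a core promoter element), CCAAT (bound by NF-Y), GGGCGG (the GC box, bound by Sp1), GGAATG (bound by TEAD factors) and TGACNNNGC (an antioxidant response element). Overlapping matches run together as 1 stretch of capitals. In GENCODE 29 each of these 4 genes is annotated to begin upstream of the RefSeq start used here, and the principal ANXA1 transcript used below for its length starts 5789 bases from it.
ANXA1, chr9:73151615-73151864, plus strand: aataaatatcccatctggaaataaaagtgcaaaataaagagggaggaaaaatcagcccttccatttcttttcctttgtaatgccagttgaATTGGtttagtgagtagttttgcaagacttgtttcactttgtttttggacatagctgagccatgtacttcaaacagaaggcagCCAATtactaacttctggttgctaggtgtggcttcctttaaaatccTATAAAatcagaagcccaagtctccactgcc
ANXA2, chr15:60397987-60398236, minus strand: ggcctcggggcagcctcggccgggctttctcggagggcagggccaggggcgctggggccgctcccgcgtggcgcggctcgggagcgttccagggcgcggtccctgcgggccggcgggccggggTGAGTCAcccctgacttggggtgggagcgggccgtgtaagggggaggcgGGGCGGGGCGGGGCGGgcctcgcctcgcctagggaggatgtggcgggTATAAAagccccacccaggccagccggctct
ANXA6, chr5:151157780-151158029, minus strand: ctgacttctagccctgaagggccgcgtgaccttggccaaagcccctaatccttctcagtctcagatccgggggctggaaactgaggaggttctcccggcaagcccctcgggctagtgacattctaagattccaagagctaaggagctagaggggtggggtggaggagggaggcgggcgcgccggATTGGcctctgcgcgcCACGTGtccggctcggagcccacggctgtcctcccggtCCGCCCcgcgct
ANXA5, chr4:121696981-121697230, minus strand: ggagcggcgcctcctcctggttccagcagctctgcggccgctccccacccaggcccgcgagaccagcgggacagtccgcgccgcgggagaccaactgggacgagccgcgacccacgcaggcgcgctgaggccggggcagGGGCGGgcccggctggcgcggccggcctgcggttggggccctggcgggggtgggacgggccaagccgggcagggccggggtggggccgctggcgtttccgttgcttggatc

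The ANXA1 and ANXA2 windows both held TATAAA from 31 to 26 bases upstream of the start. That motif was in 10.7% of all 35116 RefSeq windows of this length. They differed in base composition: the ANXA1 window was 38.4% GC with 0 CpG pairs, and the ANXA2 window 78.0% with 28, against a median of 58.0% and 11 over all windows. The ANXA2 window also held TGAGTCA, a match to TGANTCA, from 127 to 121 bases upstream, a motif found in 6.57% of windows, and 3 overlapping GC boxes (42.6% of windows). The ANXA6 window, which like that of ANXA5 had no TATAAA, held CACGTG from 50 to 45 bases upstream (6.34% of windows), with 1 CCAAT match (32% of windows) and 1 GC box. The ANXA1 window also held 2 CCAAT matches. The ANXA5 window was 78.8% GC and held, of these motifs, only 1 GC box. GGAATG (11.9% of all windows) and TGACNNNGC (10.9%) were in 0 of the annexin windows. Outside these 4 genes, TATAAA was also in a window of ANXA11, which lay level, from 61 to 56 bases upstream. CACGTG was also in a window of ANXA4, from 216 to 211 bases upstream. A match says only that these letters are present. Of the 10 genes 9 had a RefSeq window, 13 windows in all, since ANXA4, ANXA6 and ANXA11 have more than 1 start.

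PNISR itself had 776 to 1002 raw reads per shNC library and 313 to 450 per shPNISR library, with no overlap. It shares 117 exonic bases with the antisense gene AL513550.1. Total counts ran from 15049485 to 17977803 per library. On the first principal component shNC 2 scored 0.787, between the other shNC libraries (-35.2 and -31.2) and the shPNISR libraries (16.9 to 24.6), so values for shNC 2 are given apart where they matter. Epithelial markers matched the label: EPCAM, CDH1, KRT8, KRT18, KRT19, VIL1, CDX2 and CDH17 were all detected and passed the low-count filter, whereas KRT20 averaged 0.123 CPM in shNC and 0.346 CPM in shPNISR. CPM, the unit of level throughout, is the read count scaled by library size and TMM factor. Of the 8 tested, KRT19 and CDH17 were called higher in shPNISR and 6 did not pass, beside 2.3% of all tested genes called higher. The summed epithelial markers were 4351 to 4962 CPM for shNC and 4855 to 6092 CPM for shPNISR. Leukocyte markers summed to 9.11 to 12.6 CPM in shNC and 12.8 to 13.4 CPM in shPNISR over 8 genes, of which LCP1 gave the most, with PTPRC and TYROBP at 0 in all 6 libraries. Fibroblast markers summed to 16.9 to 25.5 CPM and 25.2 to 29.6 CPM over 8 genes, of which COL1A1 gave the most, with COL1A2 at 0 in all 6. Endothelial markers summed to 0.718 to 1.49 CPM and 1.41 to 1.66 CPM over 4 genes.

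The 10 annexins together took 0.159 ± 0.00874% of all counts in shNC and 0.190 ± 0.0107% in shPNISR (mean ± SD, n = 3 each). The summed level was 1498, 1690 and 1572 CPM in shNC 1 to 3 and 1942, 2053 and 1725 CPM in shPNISR 1 to 3. Every shPNISR library lay above every shNC library, with shPNISR 3 closest to the controls. ANXA2 and ANXA6 made up most of that gap. The sum of the other 8 annexins was 768 ± 38.6 CPM (shNC) and 803 ± 53.6 CPM (shPNISR), and there the groups overlapped. In bulk RNA, more cells that make a transcript and more transcript per cell cannot be told apart.

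**Figure D1:**
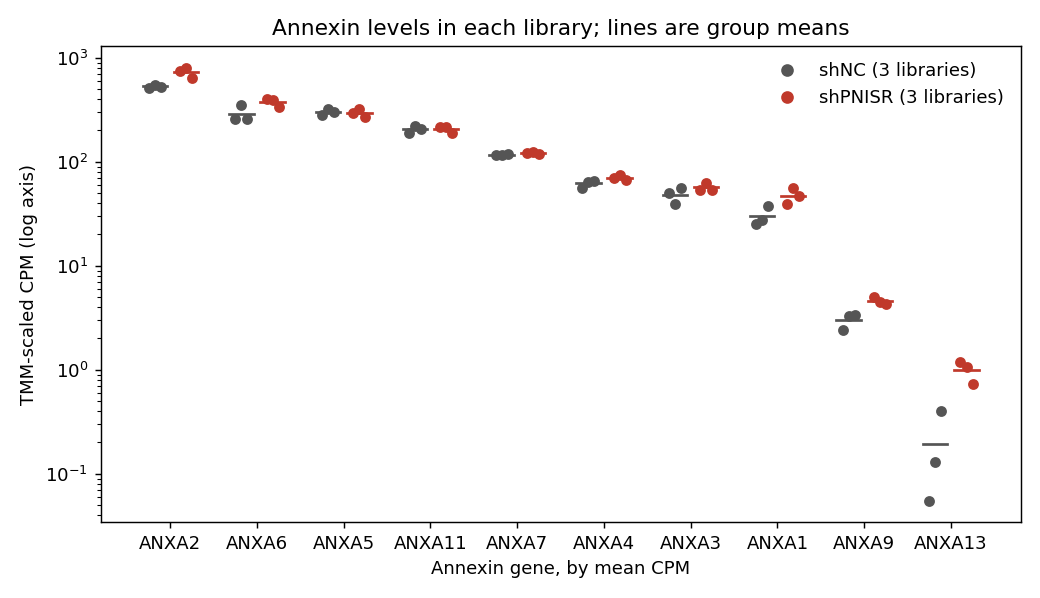
Level of each annexin in each library, in TMM-scaled CPM on a log axis, with genes ordered by mean level; points are libraries (3 shNC, grey, and 3 shPNISR, red) and lines are group means. The shPNISR points lie wholly above the shNC points for ANXA2, ANXA7, ANXA4, ANXA1, ANXA9 and ANXA13 and overlap them for ANXA6, ANXA5, ANXA11 and ANXA3.

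To compare genes with each other, levels were divided by the length of the principal annotated transcript. On that scale, CPM per kilobase, ANXA2 led in shNC at 316 ± 8.70, followed by ANXA5 at 172 ± 11.03, ANXA6 at 111 ± 20.3 and ANXA7 at 53.7 ± 0.646. ANXA11 (29.5 ± 2.29) and ANXA3 (29.2 ± 4.93) overlapped and have no order between them. ANXA4 (22.1 ± 1.91), ANXA1 (13.7 ± 3.04), ANXA9 (1.65 ± 0.280) and ANXA13 (0.123 ± 0.114) followed, each below the range of the one before. The lower ranks are those of annexins known for narrower tissue distribution, ANXA9 and ANXA13. The choice of length sets part of the order: with all annotated exons of a gene merged, ANXA5 came first (99.8 CPM per kilobase) and ANXA2 second (60.0), and ANXA1 passed ANXA4 (6.62 against 5.60).

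Across all tested genes, edgeR's quasi-likelihood test at a Benjamini-Hochberg adjusted p of 0.05 called 2.3% higher and 0.832% lower in shPNISR, 3.14% in either direction. Of the 10 annexins 3 were called higher (ANXA1, ANXA2 and ANXA13) and 0 lower. At an unadjusted p under 0.05 these counts were 5 and 0, beside 9.98% of all tested genes higher and 7.79% lower. DESeq2 called 3 and 0, beside 2.96% and 1.42% of all genes. Since the genes were listed with this contrast known, nothing is read from that count. It was 0 without shNC 1 or without shPNISR 2, 1 without shPNISR 1 or without shPNISR 3, and 2 without shNC 3. Of all genes, 153 of 16411 were called higher without shNC 1, 217 of 16360 without shPNISR 2 and 133 of 16397 without shPNISR 1. The numbers were 177 of 16423 without shPNISR 3 and 336 of 16495 without shNC 3, beside 371 of 16102 with all 6 libraries. Without shNC 2 the annexin count was 3, with 1284 of 16500 genes called higher. The fitted difference was above 0 for 9 of the 10, beside 47.9% of all tested genes. The 9 include ANXA7 (0.06) and ANXA11 (0.01), which lay level. The median log2 fold change of the 10 was 0.31, beside -0.01 over all tested genes. The shPNISR libraries lay wholly above the shNC libraries for 6 of the 10 annexins, beside 11.5% of all tested genes, and wholly below them for 0, beside 9.58%. These 6 and the 3 called higher include ANXA13, which passed the low-count filter only through the shPNISR libraries. At a minimum mean of 1 CPM, where ANXA13 was not tested, 2 of 9 annexins were called higher, beside 348 of 14854 tested genes.

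ANXA2 (chromosome 15, 60347134 to 60402883, GRCh38, minus strand) encodes the annexin that joins S100A10 in a complex at the plasma membrane and there binds plasminogen and its activator. It had the highest CPM of the 10. Libraries shNC 1 to 3 held 516, 545 and 528 CPM, and shPNISR 1 to 3 held 744, 804 and 636 CPM. The 3 shNC values lay within a narrow band and all shPNISR values lay above it, shPNISR 3 by least. The log2 fold change was 0.46 ± 0.12 (SE), which is 1.37-fold. ANXA2 accounted for 33.4 ± 1.11% of the annexin counts in shNC and 38.1 ± 1.17% in shPNISR (mean ± SD, n = 3 each), again without overlap. The call of ANXA2 ended without shNC 1, shNC 3, shPNISR 1 or shPNISR 2, with values between 0.38 and 0.46 in those fits.

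ANXA2 has processed pseudogenes that can share its reads. The annotated transcript of ANXA2P2, on chromosome 9 at 33624274 to 33625293, matched the ANXA2 transcript at 1004 of 1020 aligned bases (98.4%). ANXA2P2 had 471, 465 and 358 counts in shNC and 638, 631 and 498 in shPNISR, so it too was higher in each shPNISR library than in any shNC library. Its log2 fold change was 0.43 ± 0.14 and did not pass (edgeR adjusted p = 0.106). Without shNC 2 it passed (0.0198). For each 100 counts of ANXA2 there were 5.03 ± 0.506 of ANXA2P2 in shNC and 4.92 ± 0.146 in shPNISR. Whether these reads came from the pseudogene or from ANXA2 was not tested. The pseudogene ANXA2P1 had 0 to 2 counts per library, and ANXA2P3 had 0 in all 6.

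ANXA1 (chromosome 9, 73151757 to 73170393, plus strand) encodes a substrate of the EGF receptor that is induced by glucocorticoids and, once secreted, acts on formyl peptide receptors. Its level was 25.2, 27.6 and 37.8 CPM for the shNC libraries and 39.2, 56.0 and 46.6 CPM for those of shPNISR. The groups did not overlap, but shNC 3 and shPNISR 1 lay close together. The log2 fold change was 0.65 ± 0.16, or 1.57-fold, the largest among annexins with a mean of at least 5 CPM. For ANXA1 the call was lost without shNC 1, shNC 2, shPNISR 2 or shPNISR 3 (0.50 to 0.66) and with scaling by library totals (0.64). Leukocytes and fibroblasts also express ANXA1. The leukocyte marker sum was also higher in all shPNISR libraries, by a narrow margin, and the fibroblast sums ran higher with a small overlap. Of these markers only LYZ was called, and it was lower in shPNISR (log2 fold change -2.05 ± 0.51, edgeR adjusted p = 0.0337). LYZ had 16, 21 and 21 counts in shNC and 1, 5 and 8 in shPNISR. It passed the low-count filter only through the shNC libraries, so nothing is read from its call. PTPRC, TYROBP and the collagen gene COL1A2 were at 0 in every library. The fitted difference was above 0 for 3 of the 4 tested leukocyte markers and 4 of the 5 tested fibroblast markers. CD14 lay wholly higher in shPNISR (log2 fold change 0.73 ± 0.28), and COL1A1 was higher with an overlap (0.52 ± 0.17). Neither passed. The part of leukocyte or fibroblast markers in the difference of ANXA1 was not tested.

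ANXA6 (chromosome 5, 151100712 to 151157882, minus strand) encodes the largest annexin, in which the core is duplicated, and which is known from cholesterol handling and endosomes. Its level was 258, 350 and 259 CPM for the shNC libraries and 399, 390 and 338 CPM for those of shPNISR. The groups overlapped through shNC 2 alone, which lay above shPNISR 3. The log2 fold change was 0.38 ± 0.13 with all 6 libraries and did not pass. Without shNC 2 it was 0.54 and passed, in a fit that called 1284 of 16500 tested genes higher. ANXA6 lay 0.44 higher in shNC 2 than in the mean of shNC 1 and shNC 3 on the log2 scale, the largest upward shift of that library among the 10 annexins.

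ANXA13, on the long arm of chromosome 8, encodes the annexin most restricted to gut and kidney epithelium, where a lipid anchor holds it on membranes. It was barely detected. Only 1, 2 and 6 reads fell on it in the shNC libraries, against 20, 17 and 12 in those of shPNISR. As levels these are 0.0552, 0.129 and 0.3996 CPM against 1.18, 1.05 and 0.736 CPM. It passed the low-count filter only through the shPNISR libraries, so it had to differ in order to be tested at all. The log2 fold change was 2.36 ± 0.56, the largest of the family. Leaving out shNC 3 moved it to 3.36 and leaving out shNC 1 to 1.88, and it was no longer called when shNC 1 or any 1 of the shPNISR libraries was dropped. At a minimum mean of 1 CPM the gene was not tested.

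ANXA9, on chromosome 1 at 150982017 to 150995634, encodes a member whose core has lost the usual calcium sites. Its level was 2.43, 3.30 and 3.33 CPM for the shNC libraries and 4.97, 4.47 and 4.29 CPM for those of shPNISR. All shPNISR values lay above all shNC values, on 44 to 51 counts per shNC library and 70 to 84 per shPNISR library. The log2 fold change was 0.61 ± 0.23 and did not pass. Its size was close to that of ANXA1, but the standard error was wider.

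**Figure D2:**
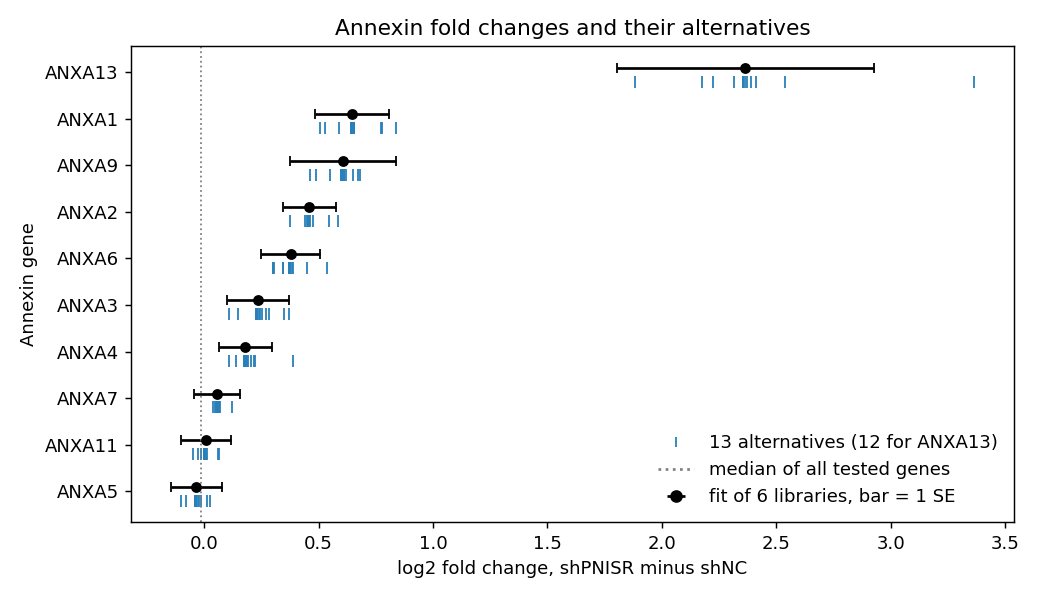
Log2 fold change (shPNISR minus shNC) of each annexin: black points with bars of 1 SE are the fit of all 6 libraries, blue ticks are the alternative fits, and the dotted line is the median of all tested genes. ANXA5 and ANXA11 sit at the median, ANXA1, ANXA9, ANXA2 and ANXA6 to the right of it, and ANXA13 stands apart at 2.36 with the widest bar.

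ANXA3 and ANXA4 showed smaller differences. ANXA3, known from neutrophil granules and from tumour cell lines, was at 49.6, 39.6 and 55.8 CPM for the shNC libraries and 53.7, 63.0 and 54.0 CPM for those of shPNISR. The groups overlapped, and shNC 2 was the lowest of the 6. Its log2 fold change of 0.23 ± 0.13 fell to 0.11 without shNC 2. ANXA4, an annexin of the membranes of secretory epithelium, was at 55.7, 64.2 and 65.5 CPM for the shNC libraries and 70.0, 73.8 and 66.4 CPM for those of shPNISR. These groups did not overlap, by a margin of under 1 CPM between shNC 3 and shPNISR 3. Its log2 fold change was 0.18 ± 0.12, and 0.39 once GC content and exon length were regressed out per library. Neither gene passed in any of the fits.

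ANXA5, ANXA7 and ANXA11 lay level. ANXA5, on chromosome 4 at 121667955 to 121697113, binds exposed phosphatidylserine and is used as a label for dying cells. It was at 285, 323 and 300 CPM for the shNC libraries and 295, 321 and 271 CPM for those of shPNISR, a log2 fold change of -0.03 ± 0.11. ANXA11, which tethers RNA granules to lysosomes, was at 190, 222 and 204 CPM and 215, 215 and 189 CPM, a log2 fold change of 0.01 ± 0.11. For both, the values of the groups ran through each other. ANXA7, which like ANXA11 has a long N-terminal tail rich in glycine and proline, was at 116, 115 and 118 CPM for the shNC libraries and 121, 124 and 119 CPM for those of shPNISR. The values were close, yet the groups did not overlap, and the log2 fold change was 0.06 ± 0.10. ANXA7 overlaps the antisense gene AL512656.1 over 105 exonic bases, and reads of the pair cannot be told apart without the strand setting. No other annexin of the 10 shared exonic bases with another gene in GENCODE 29.

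**Figure D3:**
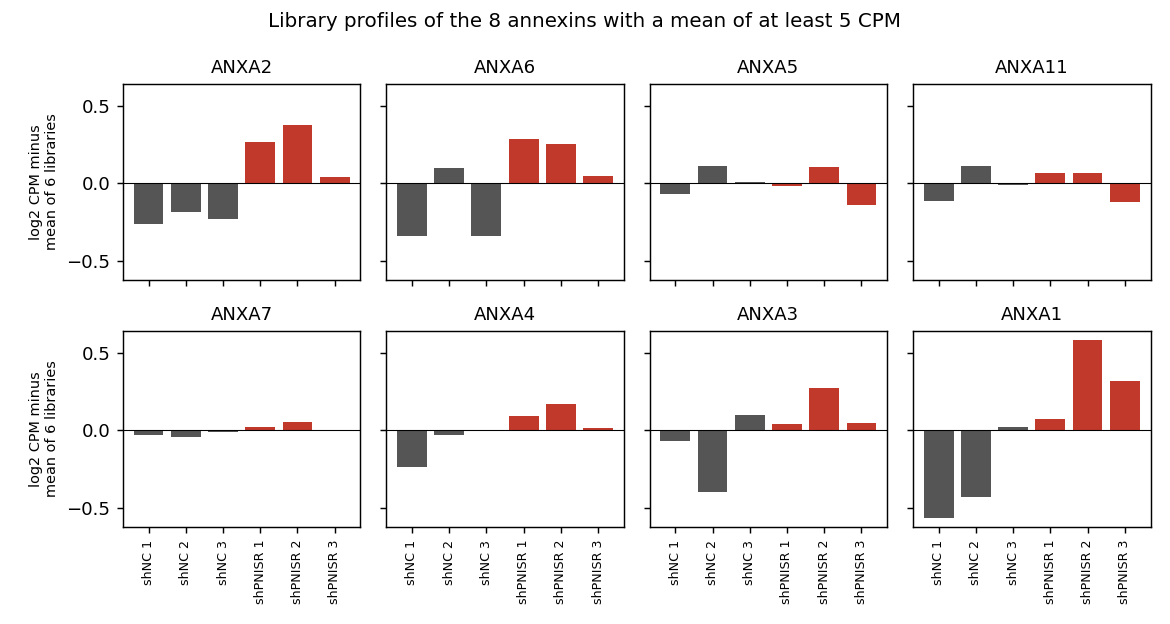
Log2 CPM of each of the 8 annexins with a mean of at least 5 CPM, minus its own mean over the 6 libraries (vertical axis), by library (horizontal axis; shNC grey, shPNISR red). ANXA5 and ANXA11 have shNC 2 above the mean and shPNISR 3 below it, whereas the other 6 genes are above their mean in every shPNISR library, ANXA7 by the least.

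The members differed in their profile over the libraries. Likeness was measured as the root mean square difference of log2 CPM, centred per gene, over the 6 libraries. The nearest pair was ANXA5 and ANXA11 (0.04), and ANXA7 was next to both (0.09 from each). ANXA2 was nearest to ANXA6 (0.14). ANXA1 stood farthest from ANXA5 (0.41), and its nearest annexin was ANXA2 (0.25). Among 11681 other genes with a symbol and a mean of at least 5 CPM, the 5 nearest to ANXA1 were EIF1AY (0.13), PPM1N (0.13), TMEM52 (0.13), PALM3 (0.14) and LINC00623 (0.15). These distances rest on 6 libraries that share the same contrast. PALM3, which encodes a membrane-bound paralemmin, was at 16.7 ± 2.85 CPM (shNC) and 26.9 ± 0.717 CPM (shPNISR).

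The make-up of the annexin counts differed between the groups. ANXA5 supplied 19.1 ± 0.0632% of annexin counts in shNC and 15.5 ± 0.298% in shPNISR, and ANXA11 12.9 ± 0.227% and 10.8 ± 0.314% (mean ± SD, n = 3 each). Neither pair of groups overlapped. In CPM both genes lay level, at log2 fold changes of -0.03 and 0.01, so their lower shares reflect the larger annexin sum in shPNISR. The share of ANXA6 was 18.1 ± 2.26% and 19.7 ± 0.769%, and these overlapped through shNC 2. The ratio of ANXA2 to ANXA5 counts was 1.75 ± 0.0636 in shNC and 2.46 ± 0.0979 in shPNISR, and that of ANXA6 to ANXA5 was 0.950 ± 0.116 and 1.27 ± 0.0726. A ratio within a library does not depend on how libraries were scaled.

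**Figure D4:**
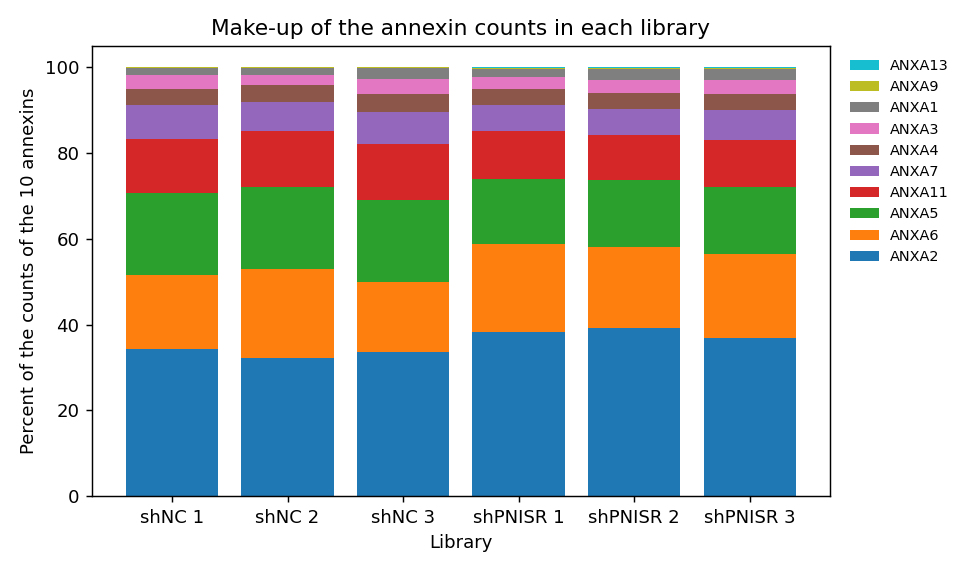
Share of the summed counts of the 10 annexins taken by each gene (percent, vertical axis) in each library (horizontal axis). The ANXA2 segment is larger in the 3 shPNISR libraries than in the 3 shNC libraries (38.1% against 33.4% on average) and the ANXA5 segment smaller (15.5% against 19.1%). The CPM of ANXA5 itself lay level.

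Apart from ANXA2P2, the rest of the family was near or at 0. ANXA8 had 0, 3 and 0 counts in shNC and 6, 2 and 5 in shPNISR, and its near-copy ANXA8L1 had 1 to 4 counts in each library. Their annotated transcripts were identical at 99.3% of 1106 aligned bases, so how their reads were split is uncertain. ANXA10, an annexin of gastric epithelium, had 0 counts in all 6 libraries. ANXA2R, reported as a receptor for ANXA2, was at 0.589 ± 0.180 CPM (shNC) and 0.734 ± 0.235 CPM (shPNISR) and did not pass (adjusted p = 0.745). It overlaps an antisense gene over 115 exonic bases.

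The lists of related genes below were, like the annexins, chosen with earlier results of these data known. Their counts and differences are descriptions and not independent tests. Among 16 genes for partners, ligands and receptors of annexins, 12 were tested, 3 rose (S100A10, S100A11 and S100A4), 0 fell and 9 did not pass, beside 2.3% of all tested genes called higher. DESeq2 also called 3 higher and 0 lower, beside 2.96% and 1.42% of all genes, and at an unadjusted p under 0.05 edgeR had 4 higher and 0 lower, beside 9.98% and 7.79%. The median log2 fold change of the list was 0.09, and the 3 genes that rose are all of the S100 family. S100A10, the partner of ANXA2, was at 254, 279 and 285 CPM for the shNC libraries and 380, 457 and 338 CPM for those of shPNISR. Its log2 fold change was 0.52 ± 0.12 (edgeR quasi-likelihood test, Benjamini-Hochberg adjusted p = 0.0228), beside 0.46 for ANXA2. The library order within shPNISR was the same for both genes, with shPNISR 2 highest and shPNISR 3 lowest. That order was not particular to them, since ANXA5, which lay level between the groups, had it too. Within shNC their orders differed, with ANXA2 highest in shNC 2 and S100A10 highest in shNC 3.

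S100A11, a partner of ANXA1, rose from 108 ± 8.26 to 147 ± 21.7 CPM (0.45 ± 0.12 on the log2 scale, edgeR adjusted p = 0.0485). S100A4, a calcium-binding protein that also binds ANXA2, rose from 133 ± 12.9 to 198 ± 33.5 CPM (0.57 ± 0.13, edgeR adjusted p = 0.0174). Higher values in all shPNISR than in all shNC libraries were also seen for S100A6 (0.39 ± 0.12), which did not pass. These S100 genes all lie on chromosome 1. Leaving out shNC 1, shPNISR 1 or shPNISR 2 ended all 3 calls (for S100A10 adjusted p = 0.130, 0.0925 and 0.112), and that of S100A11 was also lost under 4 other settings, to an adjusted p of 0.0502 to 0.0696. Without shNC 2 the list had 5 higher members, with S100A6 and DYSF added. That fit called 1284 of 16500 tested genes higher, beside 371 of 16102 with all 6 libraries.

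**Figure D5:**
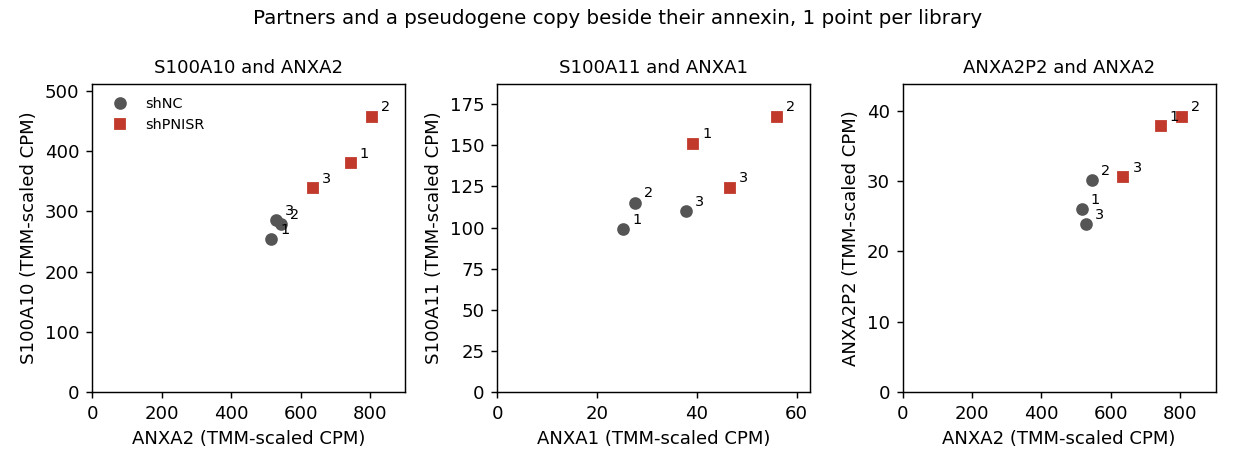
Level of S100A10, S100A11 and ANXA2P2 (vertical axes, TMM-scaled CPM) against that of their annexin (horizontal axes, TMM-scaled CPM), with 1 point per library labelled by its number; circles are shNC and squares shPNISR. For S100A10 and ANXA2 the 3 shPNISR libraries lie above and to the right of the 3 shNC libraries, with shPNISR 2 outermost.

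None of the other 9 tested partners passed. SRI, which encodes the ANXA7 partner sorcin, was at 88.4 ± 6.63 CPM (shNC) and 91.0 ± 13.8 CPM (shPNISR). PDCD6, the calcium sensor that binds ANXA7 and ANXA11, was at 6.54 ± 1.34 and 6.17 ± 0.839 CPM. PLAT, the plasminogen activator that ANXA2 binds, was at 87.9 ± 33.1 and 75.7 ± 2.38 CPM. Its spread in shNC came with a value in shNC 2 that was 0.87 above the other shNC libraries on the log2 scale. The ANXA1 receptors FPR1, FPR2 and FPR3 had means of at most 0.102 CPM in either group, and PLG had 0 counts in all 6 libraries. The receptors and PLG were below the filter and not tested.

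Other proteins that bind phospholipid with calcium, the copines, ferlins, extended synaptotagmins and synaptotagmin-like proteins, gave 18 tested genes of 25. Of these 0 were called in either direction by edgeR, beside 3.14% of all tested genes, and 0 by DESeq2. At an unadjusted p under 0.05 there were 2 higher and 1 lower, beside 9.98% and 7.79% of all genes. Their median log2 fold change was 0.11. The most abundant were ESYT1, a tether between the endoplasmic reticulum and the plasma membrane, at 204 ± 23.2 CPM (shNC) and 226 ± 31.3 CPM (shPNISR), and CPNE3, a copine, at 159 ± 7.28 and 135 ± 13.4 CPM. Without shNC 2, where 1284 of 16500 tested genes were called higher, the copine gene CPNE5 was too. Its counts were 9, 11 and 9 in shNC, near the filter's minimum count of 10, and 36, 19 and 19 in shPNISR.

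Of 18 genes of plasma membrane repair, which include the ESCRT-III subunits, calpains and caveola proteins, 17 were tested, 1 rose, 0 fell and 16 did not pass, beside 2.3% of all tested genes called higher and 0.832% lower. DESeq2 called 2 higher and 0 lower, beside 2.96% and 1.42% of all genes. With edgeR 2 were higher and 0 lower at an unadjusted p under 0.05, beside 9.98% and 7.79%. The median log2 fold change was 0.10. The gene that rose was CAVIN1, which coats caveolae, from 121, 113 and 118 CPM in shNC to 221, 192 and 160 CPM in shPNISR. Its log2 fold change was 0.70 ± 0.12 (edgeR quasi-likelihood test, Benjamini-Hochberg adjusted p = 0.00277), and it passed in all 13 alternative fits. EHD2, which shapes caveolae, was the other gene that DESeq2 called, at 25.4, 44.2 and 20.4 CPM for the shNC libraries and 53.4, 45.8 and 46.2 CPM for those of shPNISR. It did not pass with edgeR (adjusted p = 0.172), and was called by edgeR without shNC 2, which lay 0.95 above the other shNC libraries on the log2 scale.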

How the data were processed

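RNA of 6 HCT-8 libraries was sequenced. The authors deposited whole-number read counts per Ensembl gene, not normalized. Alignment tool and build, per the submitters' processing notes, were HISAT2 2.0.4 and GRCh38. Counter, annotation release and strand option remain not given in the sources used here. Columns were matched to libraries by name. The annexins and the lists of related genes were chosen with earlier results of these data known. Named genes are the 10 annexins, PNISR, the rest of the family, up to 4 called members of each other list (or the 2 most abundant), and the 5 profiles nearest to ANXA1; others were chosen after their values were seen.

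Genes were filtered with filterByExpr (minimum count 10, minimum total 15), scaled by TMM and compared by edgeR 4.0.16 (R 4.3.3, robust quasi-likelihood, two-sided), adjusted over all 16102 genes. SE came from the fold change and its statistic. CPM are TMM-scaled; profiles used log2 CPM with a prior count of 2. Alternatives were DESeq2 1.42.0 and its size factors, library totals, other filters, a replicate block, a loess correction (span 0.4) for GC content and exon length, and leaving out each library. Chi-square comparisons found replicate libraries further apart than counting noise, so none was treated as a repeat deposit of another; this does not show separate cultures. Positions, lengths and overlaps came from GENCODE 29 (99.4% of tested genes), promoters from RefSeq, and near copies were compared by local alignment of transcripts. Counting error applies to the low counts of ANXA13 and ANXA9. Figures used matplotlib 3.10.9.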

Additional observations from a re-analysis of the deposited data

How the results depend on the processing

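Of all tested genes 371 were called higher and 134 lower. With no low-count filter these were 642 and 354, lower calls were 71 with library totals and 229 with DESeq2, and leaving out 1 library gave 133 to 1284 higher and 30 to 746 lower. The 3 annexins called higher ranged from 0 (without shNC 1 or shPNISR 2) to 3 when 1 library was left out, and were 2 with library totals, 2 at a mean of at least 1 CPM, where ANXA13 was not tested, and 4 with no filter, ANXA6 being added. The 4 related genes called ranged from 1 to 8 in the same way, and no annexin or related gene was called lower in any of the fits. ANXA5 turned from -0.03 to 0.014 without shNC 2 and 0.025 without shPNISR 3 (leave-one-out range -0.10 to 0.025), and ANXA11 from 0.01 to -0.048 without shNC 1, -0.015 without shPNISR 1 and -0.028 without shPNISR 2 (range -0.048 to 0.066); the cause was not tested. ANXA1, ANXA2, ANXA3, ANXA4, ANXA6, ANXA7, ANXA9 and ANXA13 kept a value above 0 in every fit in which they were tested. Same-numbered libraries deviated together at correlations of 0.12, -0.08 and -0.15, and shPNISR 2 correlated best with shNC 3 (0.31), so the numbers do not pair the samples; with the replicate block 390 genes were higher and 118 lower, 2 annexins were called (ANXA2 being lost) and 3 related genes (S100A11 being lost). Depth limits ANXA13, with 1 to 20 counts per library, and ANXA9, with 44 to 84.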
